A study of Mus musculus with 9 samples.

Results

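Monocytes and macrophages are mononuclear phagocytes, and 9 genes known for their part in these cells were followed through mouse bone marrow stem and progenitor cells in which Runx1 was altered. The genes were Mpeg1, F13a1, Ctss, Cst3, Ly86, Irf8, Clec4e, Cd68 and Cybb. They were chosen by name, as the probe sets annotated to them alone, and 9 of 9 were measured, among 12393 genes in all. Together they had 11 probe sets, since Irf8 and Clec4e had 2 each.

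The RNA came from sorted bone marrow cells that carried c-Kit and Sca-1 and lacked lineage markers and IL7Ra (KSL cells), a fraction that holds blood stem cells and their early descendants. Each of 3 groups had 3 arrays from mice on a C57BL/6 background, labelled as biological replicates. Control mice had the genotype Runx1floxed/floxedMxCre-/-, and Runx1KO mice Runx1floxed/floxedMxCre+/-, and both were taken 3 months after poly IC. MxCre is a Cre recombinase under an interferon-responsive promoter, which poly IC switches on in blood cells and in other tissues, so both groups had floxed alleles and poly IC in common. The third group received a retroviral vector for RUNX1(41-214), a protein fragment named for residues 41 to 214, a stretch that includes the DNA-binding Runt domain, and was taken 4 months after transduction and transplantation. The labels name no poly IC for this group, no floxed allele and no group with an empty vector. In its comparisons the fragment, the vector, the transplantation, the time of sampling and any difference in poly IC or in floxed alleles cannot be told apart.

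Monocytes arise in the bone marrow from myeloid progenitors under transcription factors that include PU.1 (Spi1) and Irf8. They patrol the blood and settle in tissues, where they engulf microbes and dying cells, digest them in lysosomes, sense microbial molecules through Toll-like receptors and C-type lectins, and make reactive oxygen with the NADPH oxidase. Transcripts of these genes also occur at lower levels in progenitors that have begun to turn toward the myeloid lineage. In bulk RNA of this kind, fewer cells of a type and less RNA per cell cannot be told apart.

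Signals are given as log2(signal + 16) after quantile normalization, so that a difference of 1 is a doubling for a bright gene. The median array signal ran from 125 to 147 on the deposited linear scale, and correlations between arrays ran from 0.976 to 0.992 within groups and from 0.968 to 0.986 between groups. The stem cell marker Kit averaged 11.15, 11.64 and 11.72 in control, Runx1KO and fragment cells and Cd34 averaged 11.78, 11.81 and 12.01, while the myeloid integrin gene Itgam averaged 5.08, 5.52 and 5.38, below the lower quartile of all genes (5.38) in the control cells and at or just above it in the others. The Sca-1 gene Ly6a had no probe set of its own here. Runx1, the gene deleted in Runx1KO mice, read 10.73, 9.88 and 10.58 in control, 11.20, 11.73 and 11.40 in Runx1KO and 10.82, 10.95 and 11.06 in fragment cells. Its signal was thus higher on each Runx1KO array than on each control array, and since the place of its probes relative to the deleted part was not known, it does not check the deletion. The ratio of 3′ to 5′ probe sets of Gapdh, a measure of how complete the labelled RNA was, stood at 1.85 (log2) on control array 2 and 2.13 on Runx1KO array 3, against 0.98 to 1.29 on the other 7 arrays. The same ratio of actin stood at 1.98 on Runx1KO array 3 and 0.99 on control array 2, against 0.44 to 0.88 on the others, so that only Runx1KO array 3 stood clearly apart in both.

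Across the 9 genes, 2 changes against control passed the test, both in fragment cells, where Clec4e rose and Mpeg1 fell. In Runx1KO cells 0 of the 9 passed (limma, adjusted p under 0.05), beside 0.347% of all genes, and 2 of them, F13a1 and Clec4e, were under 0.05 before adjustment, beside 7.22% of all genes. In fragment cells 2 of the 9 passed against control, beside 4.28% of all genes, and 4 were under 0.05 before adjustment, beside 15.5%. Between fragment and Runx1KO cells 1 of the 9 passed, Clec4e, beside 1.36% of all genes, and 4 were under 0.05 before adjustment, beside 10.6%. The arrays of the groups did not overlap for 1 of the 9 in Runx1KO against control (10.5% of all genes), for 3 in fragment against control (20.3%) and for 4 in fragment against Runx1KO (18.8%). Over the 9 genes the median difference from control was 0.14 in Runx1KO and -0.09 in fragment cells, beside 0 and 0.02 over all genes. The genes therefore had no common direction, with 4 of 9 below control in Runx1KO cells (50.8% of all genes), 5 of 9 below control in fragment cells (47.4%) and 5 of 9 lower in fragment than in Runx1KO cells (46.9%). Both comparisons use the same 3 control arrays.

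**Figure D1:**
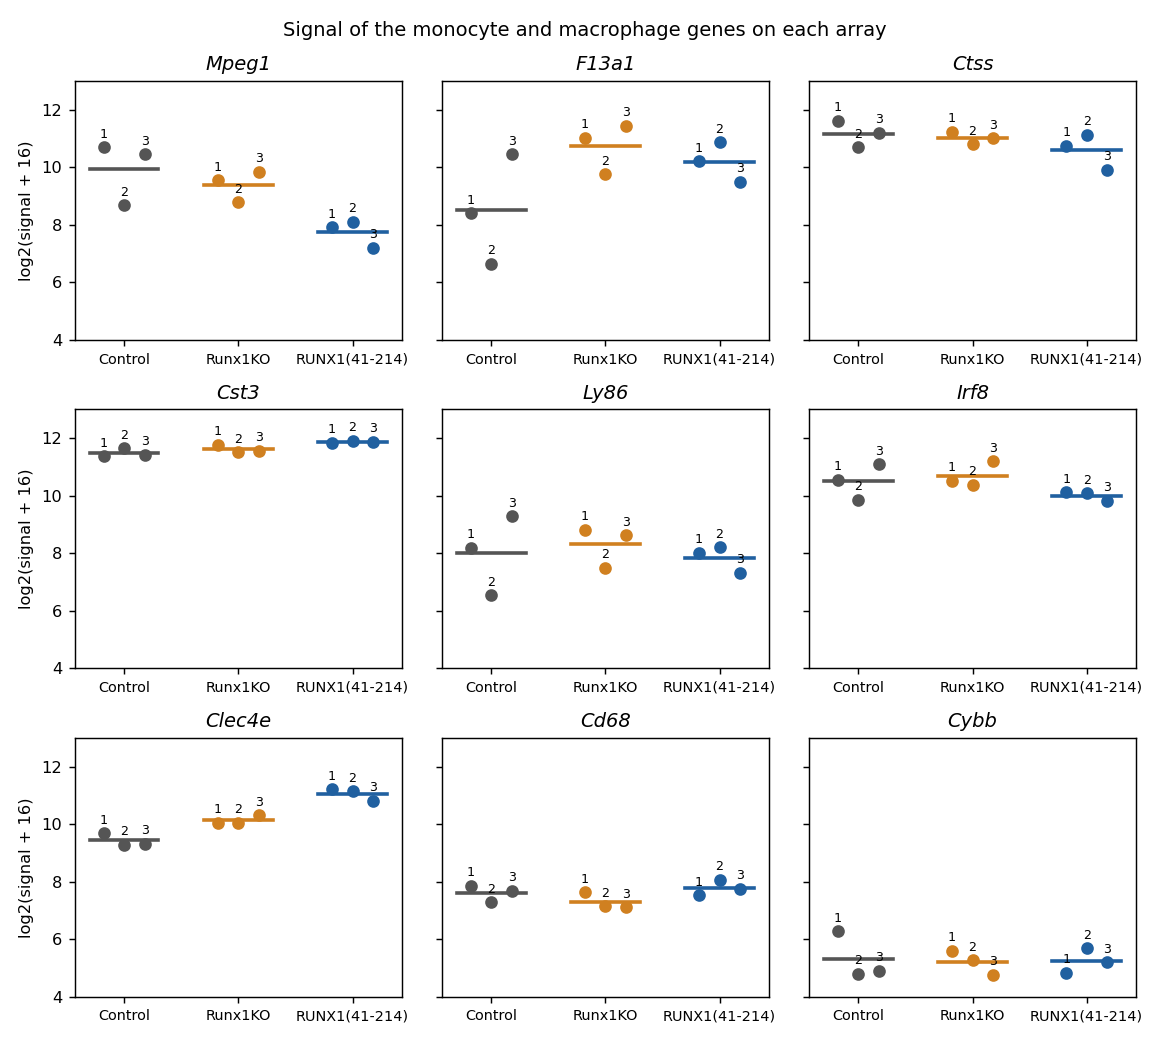
Signal of each of the 9 genes, as log2(signal + 16), on the 3 arrays of each group, numbered by replicate, with a bar at the group mean. Clec4e lies higher in each group from control to Runx1KO to fragment with no overlap, Mpeg1 lies lowest in the 3 fragment arrays (7.21 to 8.11), and F13a1 spreads from 6.65 to 10.46 within the control group.

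Clec4e, which encodes Mincle, a C-type lectin that recognises glycolipids of mycobacteria and products of dying cells, had the clearest separation of the 9. Its brighter probe set read 9.69, 9.29 and 9.33 on the control arrays, 10.05, 10.06 and 10.32 on the Runx1KO arrays and 11.21, 11.15 and 10.81 on the fragment arrays. Every Runx1KO array was above every control array, and every fragment array above every Runx1KO array. The deposited signals were 802, 624 and 631 in control, 1084, 1100 and 1195 in Runx1KO and 2382, 2259 and 1759 in fragment cells. Group means were 9.44 ± 0.22, 10.14 ± 0.15 and 11.06 ± 0.21 (SD, n = 3 each).

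Clec4e rose in fragment cells by 1.62 ± 0.17 (SE, 95% interval 1.25 to 2.00) over control, a 3.08-fold difference (limma, adjusted p = 0.000282). It was also 1.88-fold higher than in Runx1KO cells, a log2 difference of 0.91 ± 0.17 (0.54 to 1.29, adjusted p = 0.0232). In Runx1KO cells it was higher than control by 0.71 ± 0.17 (0.33 to 1.09), which did not pass (adjusted p = 0.141). The call against control held under every alternative tried. The call between fragment and Runx1KO cells was lost when the probe sets of a gene were averaged (0.99, adjusted p = 0.120) and without Runx1KO array 1 (0.87, 0.0983), Runx1KO array 2 (0.87, 0.101), fragment array 1 (0.84, 0.132) or fragment array 2 (0.87, 0.142).

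The dimmer Clec4e probe set had the same order of groups. It read 8.29, 7.01 and 7.61 in control, 8.31, 8.51 and 9.10 in Runx1KO and 9.97, 10.03 and 9.10 in fragment cells. Runx1KO and fragment arrays touched at 9.10, while the control arrays stayed below both groups. With every probe set tested, its difference from control was 2.06 ± 0.36 in fragment cells, which passed (adjusted p = 0.00959), and 1.01 ± 0.36 in Runx1KO cells, which did not (adjusted p = 0.555). Between fragment and Runx1KO cells the dimmer probe set differed by 1.06 ± 0.36, which did not pass (limma, adjusted p = 0.309).

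In the RefSeq gene order (GRCm38.p6) Clec4e lies on chromosome 6 next to Clec4d, which encodes its partner lectin MCL, with Clec4n, the Dectin-2 gene, beyond it. Clec4d read 7.97, 8.49 and 9.22 in control, 9.37, 8.68 and 9.55 in Runx1KO and 10.54, 10.51 and 10.29 in fragment cells. All 3 fragment arrays were thus above all others, and Clec4d rose by 1.88 ± 0.31 over control (adjusted p = 0.00442), a call kept whichever single array was left out (1.59 to 2.21). Clec4n had low signal, 5.39 ± 0.20 in control and 5.71 ± 0.17 in fragment cells, and its difference of 0.32 ± 0.18 did not pass.

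Mincle and MCL signal through the Fc receptor gamma chain, the product of Fcer1g. Fcer1g averaged 9.24 ± 0.28 in control, 9.46 ± 0.14 in Runx1KO and 8.60 ± 1.23 in fragment cells, where array 3 read 7.21 and the others 9.06 and 9.53. Neither difference from control passed for it (0.22 and -0.65). Tyrobp, which encodes the related adaptor DAP12, read 11.10, 11.28 and 10.97 in fragment cells, above the control arrays at 9.58 to 10.95, and its difference of 0.90 ± 0.27 did not pass (adjusted p = 0.104).

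The promoter windows of the 2 genes that passed, and of Cybb as the other gene with a Runx motif, are shown to let their motifs be compared. Each is the 250 bases before the RefSeq start site, 5′ to 3′ along the gene, in GRCm38.p6. Capitals mark matches to TGTGGT (Runx), GAGGAA (ETS factors of the PU.1 class) or the paired GAAA motif of interferon regulatory factors, 2 GAAA boxes with a gap of any 2 bases, each searched on both strands, so that TTCCTC is GAGGAA on the other strand. No 2 matches overlap in these windows.
Clec4e, chr6:123289872-123290121, minus strand: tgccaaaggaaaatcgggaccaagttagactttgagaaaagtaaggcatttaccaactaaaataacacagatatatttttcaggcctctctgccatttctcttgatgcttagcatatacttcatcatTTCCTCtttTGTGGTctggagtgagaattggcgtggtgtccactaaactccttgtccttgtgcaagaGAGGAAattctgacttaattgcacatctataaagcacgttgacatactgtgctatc
Mpeg1, chr19:12460520-12460769, plus strand: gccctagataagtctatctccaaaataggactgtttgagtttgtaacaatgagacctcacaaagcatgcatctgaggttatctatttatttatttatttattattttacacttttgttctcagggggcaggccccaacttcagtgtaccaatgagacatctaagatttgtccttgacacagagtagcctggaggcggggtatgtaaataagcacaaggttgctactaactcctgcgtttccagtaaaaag
Cybb, chrX:9469325-9469574, minus strand: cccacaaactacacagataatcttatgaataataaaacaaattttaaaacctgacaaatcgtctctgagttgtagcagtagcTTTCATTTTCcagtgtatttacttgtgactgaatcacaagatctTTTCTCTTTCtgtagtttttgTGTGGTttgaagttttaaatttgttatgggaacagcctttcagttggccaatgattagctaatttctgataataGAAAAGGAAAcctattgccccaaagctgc

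Clec4e had TGTGGT at 114 to 109 bases before its start and GAGGAA at 56 to 51 and, on the other strand, 123 to 118. The Mpeg1 window had 0 matches to the 3 motifs. The 9 genes had 11 windows, since F13a1 and Irf8 have 2 start sites each. TGTGGT was in 2 of the 11, those of Clec4e and Cybb, beside 14.0% of 32851 RefSeq mouse promoter windows of this length. GAGGAA was in 5 of the 11 (Cd68, Clec4e, Cst3, Ctss and 1 of F13a1), beside 23.3%, and the paired GAAA motif in 2 of the 11 (Ctss and Cybb), beside 2.98%. These are matches of letters only. Cybb, the other gene with the Runx motif, was dim and had differences from control of -0.12 ± 0.37 and -0.09 ± 0.37. The part of the motifs in the values of any gene was not tested.

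Mpeg1, the gene of perforin-2, a pore-forming protein that macrophages use against engulfed bacteria, moved the other way. It read 10.69, 8.68 and 10.46 in control, 9.55, 8.79 and 9.84 in Runx1KO and 7.91, 8.11 and 7.21 in fragment cells. All fragment arrays were below all arrays of the other groups, while control and Runx1KO arrays overlapped. On the deposited scale the 3 fragment arrays stood at 214, 241 and 132, against 1665, 406 and 1355 in control and 762, 446 and 850 in Runx1KO.

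Group means of Mpeg1 were 9.94 ± 1.10, 9.40 ± 0.54 and 7.74 ± 0.48 (SD, n = 3 each). It fell by 2.20 ± 0.47 on the log2 scale in fragment cells against control, a 4.60-fold difference (95% interval -3.24 to -1.16, adjusted p = 0.0219). Against Runx1KO cells the difference was -1.65 ± 0.47 (-2.69 to -0.62), which did not pass (adjusted p = 0.164), and Runx1KO differed from control by -0.55 ± 0.47 (-1.58 to 0.49, adjusted p = 0.894). The last value was -0.17 without control array 1, -0.25 without Runx1KO array 2, -0.29 without control array 3, -1.18 without control array 2 and -1.40 without both arrays of high 3′/5′ ratio, and passed in none of these. The call against control was lost without control array 1 (-1.83, adjusted p = 0.0991), control array 3 (-1.94, 0.102), fragment array 1 (-2.29, 0.0659) or fragment array 3 (-1.93, 0.0867). The difference from Runx1KO passed without control array 2 (-1.65, adjusted p = 0.0189), through the spread that all groups share.

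By distance between mean-centred profiles over the 9 arrays, the genes most like Mpeg1 among 6195 brighter genes were Sorl1 (root-mean-square distance 0.34), Emp1 (0.41) and B3gnt5 (0.44), where the median gene was at 1.14. The most like Clec4e were Fyb (0.20), Ncoa3 (0.24) and Scamp3 (0.26), with the median gene at 0.72. Sorl1 differed from control by -1.98 in fragment and -0.45 in Runx1KO cells, and Fyb by 1.26 and 0.57. These genes were picked for their likeness, so their values are a description.

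Markers of other cell types also moved in fragment cells, and some of them in Runx1KO cells. Over all genes 4.28% passed in fragment cells against control and 0.347% in Runx1KO cells against control. In summed normalized linear signal, mast cell and basophil markers ran from 4106 to 4810 in control cells. They ran from 6886 to 8335 in Runx1KO and from 8700 to 9927 in fragment cells. In fragment cells 3 of 6 rose, Hdc (3.80 ± 0.58), the protease gene Cpa3 (3.77 ± 0.28) and Ms4a2 (1.72 ± 0.24), while 2 of 6 were below control. Cpa3 also rose in Runx1KO cells (3.04 ± 0.28), a call lost in 0 of the 9 single omissions. Early lymphoid and B cell markers ran from 7405 to 11235, 4948 to 10223 and 3038 to 4041, and 3 of 12 fell in fragment cells, among them the cytokine receptor gene Il7r (-3.69 ± 0.51), whose product was also part of the sort. Dntt, the brightest of the 3, averaged 12.20, 11.90 and 10.27. Of the 12 markers, 4 were above control in fragment cells. Dendritic cell and MHC class II markers ran from 3806 to 5454, 4971 to 9113 and 2779 to 5456. In fragment cells 3 of 10 fell, with a median difference of -0.68, and 3 of 10 were above control. Itgax, the CD11c gene, was among those that fell (-1.39 ± 0.22). T and NK cell markers ran from 1067 to 1414, 489 to 1109 and 324 to 411, and 1 of 8 fell in fragment cells, the granule gene Nkg7 (-2.43 ± 0.34). Nkg7 itself averaged 10.04, 9.02 and 7.60. Only 3 of the 8 were above the lower quartile of signal. In fragment cells 3 of the 8 were above control, and the median difference was -0.06. Erythroid markers ran from 2218 to 7261, 2240 to 3640 and 1857 to 4117. Of 7 measured, 2 rose in fragment cells, the haem synthesis gene Alas2 (2.20 ± 0.41) and the anion exchanger gene Slc4a1 (2.91 ± 0.55), both calls being lost without control array 3 or fragment array 2, and 1 fell, the transferrin receptor gene Tfrc (-0.75 ± 0.18), a call lost in 7 of the 9 single omissions. Of the 4 measured markers of stem and progenitor cells 2 rose, Kit (0.57 ± 0.14, a call lost in 5 of the 9 single omissions) and Cd48 (1.36 ± 0.16, lost in 0). Cd48 also rose in Runx1KO cells (1.01 ± 0.16), a call lost in 6 of the 9 single omissions. Of 12 neutrophil markers 0 passed in fragment cells, with 2 under an unadjusted p of 0.05, beside 15.5% of all genes. The part of these markers in the values of Clec4e and Mpeg1 was not tested.

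**Figure D2:**
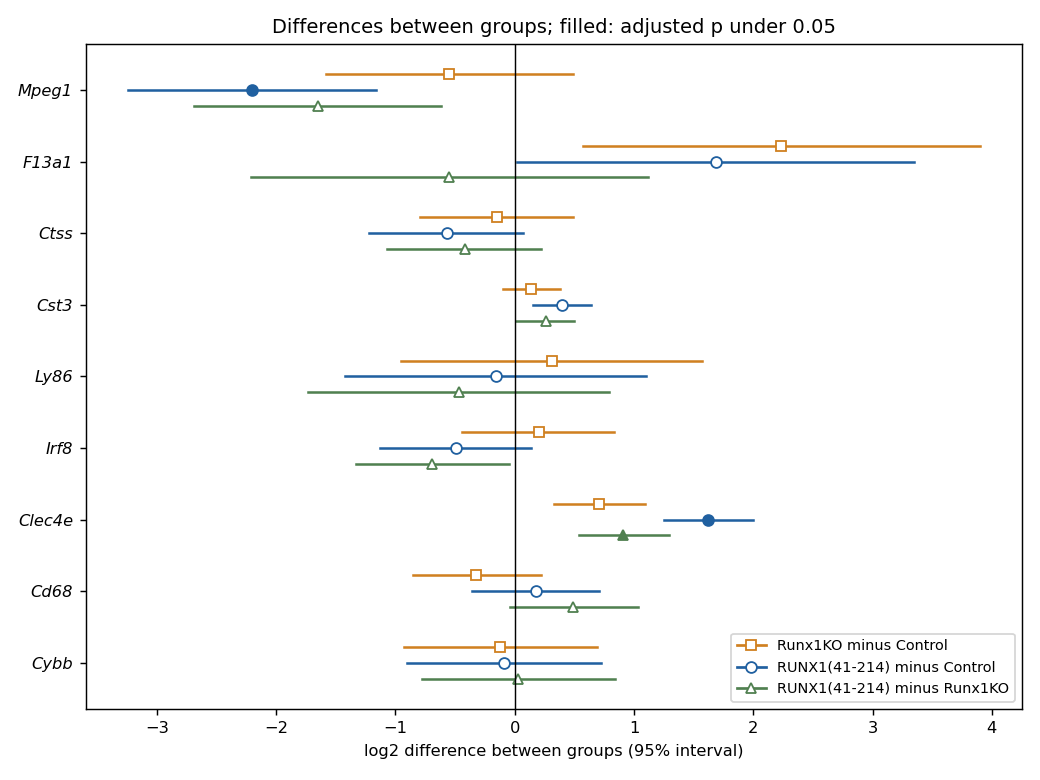
Log2 difference between groups for each of the 9 genes in the 3 comparisons, with 95% intervals from limma; filled symbols passed at an adjusted p under 0.05. Clec4e lies above 0 in all 3 comparisons, Mpeg1 lies below 0 in both fragment comparisons, and the intervals of F13a1 and Ly86 are the widest.

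Irf8, a transcription factor that directs progenitors toward monocytes and dendritic cells and away from neutrophils, read 10.55, 9.86 and 11.10 in control, 10.52, 10.38 and 11.20 in Runx1KO and 10.12, 10.08 and 9.82 in fragment cells. Fragment arrays were all below the Runx1KO arrays and overlapped only with control array 2. The fragment difference was -0.69 ± 0.29 from Runx1KO (-1.33 to -0.05, adjusted p = 0.410) and -0.49 ± 0.29 from control (-1.13 to 0.14, adjusted p = 0.479), and neither passed. The difference from control depended on the control arrays: it was -0.82 without array 2 (adjusted p = 0.0984) and -0.20 without array 3 (adjusted p = 0.849), and without both arrays of high 3′/5′ ratio it was -0.82 and passed (adjusted p = 0.0326). Runx1KO differed from control by 0.20 ± 0.29, a value that turned to -0.13 without control array 2 and -0.06 without Runx1KO array 3. The second Irf8 probe set gave -0.09 ± 0.28 in Runx1KO and -0.46 ± 0.28 in fragment cells against control.

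Of 18 partner and lineage transcription factors 16 were measured, and 0 passed in any of the 3 comparisons, with 2, 4 and 3 under an unadjusted p of 0.05 in Runx1KO against control, fragment against control and fragment against Runx1KO. Over all genes 7.22%, 15.5% and 10.6% were under that p in these comparisons. The median difference of the 16 factors from control was 0.12 in Runx1KO and -0.02 in fragment cells. Spi1, the PU.1 gene, averaged 9.05 ± 0.68, 9.17 ± 0.72 and 9.24 ± 0.23 in control, Runx1KO and fragment cells. Irf1, the brightest of them, differed from control by -0.28 ± 0.13 in fragment cells (adjusted p = 0.343). Of 18 measured interferon-stimulated genes, which interferon regulatory factors control, 0 passed in Runx1KO cells, with 2 under an unadjusted p of 0.05. There 14 were above control and 4 below, where 50.8% of all genes were below, with a median difference of 0.18. In fragment cells 15 were above control and 3 below, where 47.4% of all genes were below, with a median difference of 0.30. Of the 18, 7 were under an unadjusted p of 0.05, beside 15.5% of all genes. In fragment cells 2 of the 18 passed, beside 4.28% of all genes, both higher, Ifi27l2a (1.23 ± 0.28) and Ifi47 (0.34 ± 0.08). Both calls were lost in some single omissions, 5 and 8 of the 9, with values of 0.95 to 1.48 and 0.31 to 0.38.

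Ly86 encodes MD-1, a secreted protein that pairs with the Toll-like receptor homologue Cd180. It read 8.19, 6.55 and 9.28 in control, 8.82, 7.50 and 8.62 in Runx1KO and 8.02, 8.21 and 7.32 in fragment cells. The 3 groups overlapped, and control arrays alone spanned more than the other groups together. Its differences from control were 0.31 ± 0.58 (-0.95 to 1.57) in Runx1KO and -0.16 ± 0.58 in fragment cells, and the first turned to -0.42 without control array 2, the second to 0.48 without control array 3 and to 0.11 without fragment array 3.

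Cd180 itself read 8.17, 8.15 and 8.17 in fragment cells, above the control arrays at 6.30 to 7.90, and its difference of 0.92 ± 0.39 did not pass (adjusted p = 0.271). Of 12 genes for Toll-like receptors, their adaptors and the Ly86 partner, 11 were measured and 0 passed in any comparison. In the 3 comparisons 0, 3 and 2 of the 11 were under an unadjusted p of 0.05, beside 7.22%, 15.5% and 10.6% of all genes. The median difference of the 11 from control was 0.21 in Runx1KO and 0.18 in fragment cells. Myd88, the shared adaptor and the brightest of them, differed from control by 0.36 ± 0.16 in fragment cells (adjusted p = 0.298).

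Ctss, Cst3 and Cd68 belong to lysosomes and to the control of their proteases. Ctss encodes cathepsin S, a cysteine protease that cuts the invariant chain of MHC class II. It read 11.62, 10.69 and 11.20 in control, 11.24, 10.81 and 11.01 in Runx1KO and 10.75, 11.13 and 9.91 in fragment cells, with all groups overlapping. Its differences from control were -0.15 ± 0.29 and -0.57 ± 0.29 (-1.22 to 0.07, adjusted p = 0.401), and the first turned to 0.08 without control array 1. The second was -0.23 without fragment array 3, -0.35 without control array 1 and -0.84 without fragment array 2, and passed in none of these.

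Cst3 encodes cystatin C, an inhibitor of cysteine proteases, and had the smallest spread of the 9 genes. It read 11.37, 11.65 and 11.42 in control, 11.78, 11.51 and 11.57 in Runx1KO and 11.84, 11.91 and 11.88 in fragment cells. The fragment arrays lay above all 6 others by a small margin. The difference of fragment from control was 0.40 ± 0.11 (0.15 to 0.64), which did not pass (adjusted p = 0.0785), and it passed without control array 2 (0.48, adjusted p = 0.0316), without quantile normalization (0.58, 0.0175) and with array weights (0.42, 0.0320). Runx1KO differed from control by 0.14 ± 0.11.

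Cd68 encodes macrosialin, a membrane glycoprotein of lysosomes and endosomes in macrophages. It read 7.86, 7.29 and 7.68 in control, 7.63, 7.15 and 7.11 in Runx1KO and 7.54, 8.07 and 7.75 in fragment cells. Groups overlapped, with differences from control of -0.32 ± 0.24 in Runx1KO and 0.18 ± 0.24 in fragment cells.

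Of 20 other lysosomal genes 17 were measured, and in fragment cells 3 fell against control and 0 rose, with a median difference of -0.11. Over all genes 4.28% passed in this comparison. Ctsl, for the protease cathepsin L, read 10.54, 10.15 and 10.64 in control and 9.46, 9.29 and 8.92 in fragment cells and fell by 1.22 ± 0.22 (adjusted p = 0.00931), whichever single array was left out (-1.36 to -1.07). Lgmn, for the protease legumain, fell by 1.30 ± 0.30 (adjusted p = 0.0288), a call lost without control array 1 or 3 or fragment array 1 or 2 (values over omissions -1.58 to -0.94). Scarb2, for a lysosomal membrane receptor, fell by 0.55 ± 0.14 (adjusted p = 0.0495), a call lost in 7 of the 9 single omissions, which gave -0.66 to -0.42, that is in all but those of control array 2 and Runx1KO array 3.

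Against Runx1KO, Ctsh, for cathepsin H, was lower in fragment cells by a log2 difference of -1.33 ± 0.25 (adjusted p = 0.0219), a call lost without Runx1KO array 2 or 3 or any 1 fragment array (-1.55 to -1.11). In Runx1KO cells 0 of the 17 passed against control, and 0 were under an unadjusted p of 0.05. Cd74, the invariant chain that cathepsin S cuts, fell in fragment cells by 0.93 ± 0.23 against control (adjusted p = 0.0439) and differed from Runx1KO by -1.70 (adjusted p = 0.00335). The first of these calls was lost in 7 of the 9 single omissions (-1.15 to -0.78), all but those of Runx1KO array 3 and fragment array 3, and the second in 0 (-1.93 to -1.56).

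Cybb encodes the catalytic subunit of the phagocyte NADPH oxidase. Its probe set was dim, at the percentiles 27.5, 25.3 and 26.2 of all probe sets in control, Runx1KO and fragment cells. It read 6.28, 4.81 and 4.90 in control, 5.60, 5.27 and 4.76 in Runx1KO and 4.84, 5.68 and 5.20 in fragment cells. No group stood apart, and the small differences from control changed sign without control array 1 (0.36 in Runx1KO, 0.39 in fragment cells). The 95% intervals ran from -0.93 to 0.69 in Runx1KO and from -0.90 to 0.72 in fragment cells, and smaller differences were not detectable with these arrays.

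Of 7 oxidase partners 6 were measured and 1 passed, in fragment cells against control, beside 4.28% of all genes. Ncf1, a cytosolic organiser subunit, read 8.59, 7.80 and 8.40 in control, 7.14, 6.42 and 6.79 in Runx1KO and 6.34, 6.48 and 7.24 in fragment cells. Control arrays were above all others. It fell by 1.58 ± 0.31 in fragment cells (adjusted p = 0.0120), a call lost without control array 1 or 3 or fragment array 1 or 2 (single omissions -1.85 to -1.40), and was lower by 1.48 in Runx1KO cells without passing (adjusted p = 0.0780). Cyba, the membrane partner of Cybb, averaged 10.10 ± 0.15, 9.80 ± 0.57 and 10.34 ± 0.31 in control, Runx1KO and fragment cells and did not pass.

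F13a1 encodes the catalytic A subunit of coagulation factor XIII, a transglutaminase that cross-links fibrin and is made by monocytes, macrophages and megakaryocytes. It read 8.41, 6.65 and 10.46 in control, 11.02, 9.76 and 11.44 in Runx1KO and 10.21, 10.88 and 9.50 in fragment cells. Control arrays 1 and 2 were below all others, and control array 3 lay among them. Runx1KO differed from control by 2.23 ± 0.76 (0.57 to 3.90), which did not pass (adjusted p = 0.416).

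The fragment difference of F13a1 was 1.69 ± 0.76 (0.02 to 3.35, adjusted p = 0.314), and fragment and Runx1KO cells differed by -0.55 ± 0.76. Both differences from control rest on the control arrays. Without control array 3 they were 3.21 (adjusted p = 0.0938) and 2.66 (adjusted p = 0.0443), of which the second passed, and without control array 2 they were 1.31 and 0.76. Megakaryocyte markers stood higher than control in both groups as a sum, but not each of them. Of 8 measured, 5 were above control and 3 below in Runx1KO cells, and 7 and 1 in fragment cells. Those that passed, all higher, were 3 in Runx1KO and 3 in fragment cells, beside 0.347% and 4.28% of all genes. Their summed normalized linear signal over the 8 ran from 3291 to 4704 in control, 6715 to 7758 in Runx1KO and 9389 to 12006 in fragment cells. From Runx1KO to fragment cells the markers had a median difference of 0.61, with 7 of 8 above 0, where F13a1 had -0.55. Relative to group means, the median of the 8 markers stood at -0.21, 0.18 and 0.12 on control arrays 1 to 3. It stood at 0.02, 0.05 and -0.11 on the Runx1KO arrays and 0.16, -0.41 and 0.23 on the fragment arrays. F13a1 stood at -0.10, -1.86 and 1.95, at 0.28, -0.98 and 0.70, and at 0.02, 0.68 and -0.70 on the same arrays. The part of megakaryocyte markers in the values of F13a1 was not tested.

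Of 12 coagulation and fibrin genes 11 were measured, and 4.28% of all genes passed in fragment cells against control. In fragment cells against control 1 rose, Thbd, the gene of the anticoagulant receptor thrombomodulin, by 1.69 ± 0.35 (adjusted p = 0.0162). That call was lost without control array 1 or fragment array 1 or 2 (1.51 to 1.95). Procr, the gene of the protein C receptor, which also marks blood stem cells, fell by 0.87 ± 0.16 (adjusted p = 0.00991), a call kept in each single omission (-0.92 to -0.78). Tgm2, another transglutaminase, was lower in fragment than in Runx1KO cells by a log2 difference of -1.0 ± 0.20 (adjusted p = 0.0280), a call lost without any 1 array of these groups. In Runx1KO cells 0 of the 11 passed against control, and 0 were under an unadjusted p of 0.05.

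Several of the 9 genes varied more between arrays of 1 group than nearly all others. The pooled standard deviation within groups was 1.27 for F13a1, 0.93 for Ly86, 0.76 for Mpeg1, 0.59 for Cybb, 0.47 for Ctss and 0.45 for Irf8, at the percentiles 99.8, 99.5, 99.0, 97.4, 92.8 and 91.4 of all genes, whose median was 0.24. Cst3 (0.12), Clec4e (0.20) and Cd68 (0.28) varied as little as ordinary genes, at the percentiles 8.20, 31.7 and 63.2.

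The variable genes tended to be low on the same arrays. F13a1, Ly86, Mpeg1, Ctss and Irf8 were each lowest within their group on control array 2, Runx1KO array 2 and fragment array 3, which is 5 of 9 genes, beside 1078 of 9295 genes above the lower quartile of signal, or 11.6%. This pattern was picked out after the values were seen. F13a1 stood 1.95 above its group mean on control array 3 and at -1.86 on control array 2, and Ly86 stood at 1.28 and -1.46. F13a1 and Ly86 are neighbours on chromosome 13 in the RefSeq gene order. Csf1r, the receptor for the macrophage growth factor, also read lowest on these arrays, at 7.85, 9.80 and 9.77, against 9.52 and 11.10, 10.57 and 10.93, and 10.45 and 10.73 on the others of each group. Spi1 went the other way and read highest on these arrays, at 9.80, 9.73 and 9.49. On the others of each group it read 8.90 and 8.46, 9.42 and 8.36, and 9.05 and 9.18. Both genes were added after their values were seen.

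**Figure D3:**
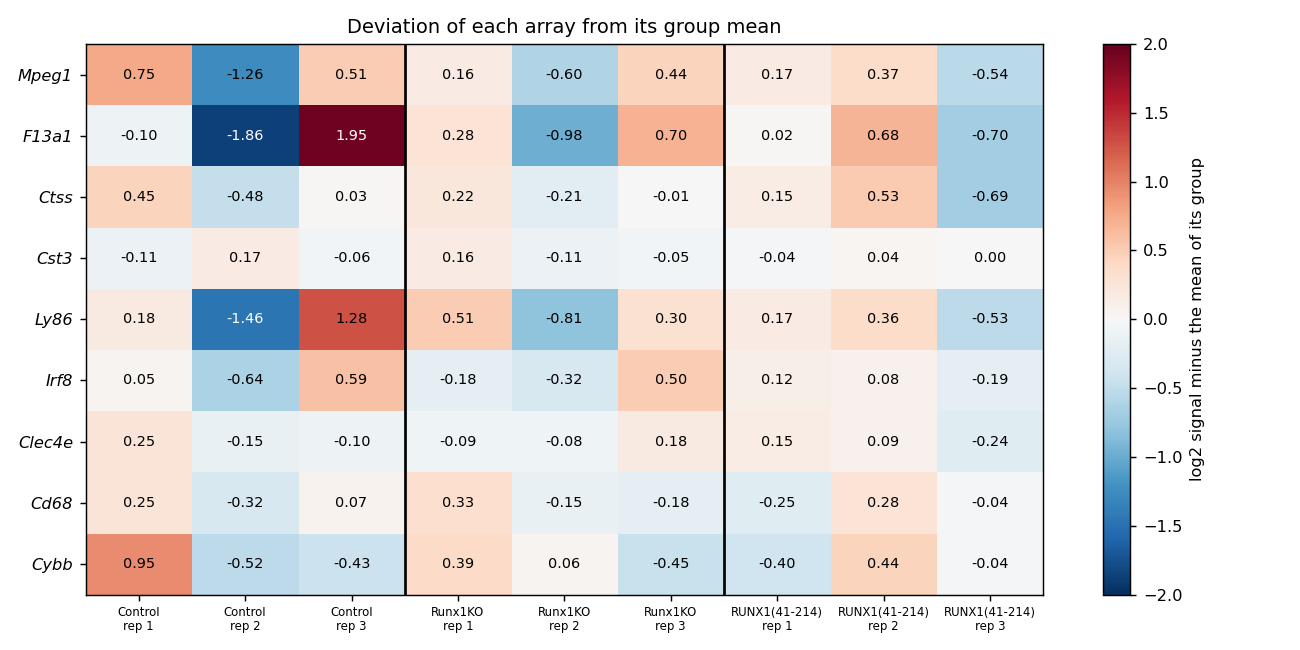
Log2 signal of each of the 9 genes on each array minus the mean of its group, coloured from blue (below) to red (above). F13a1, Ly86, Mpeg1, Ctss and Irf8 are blue on control array 2, Runx1KO array 2 and fragment array 3, with the widest range in F13a1 (-1.86 to 1.95), while Cst3 stays within 0.17 of its group mean.

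Other markers were also low on these arrays, where 36.1%, 32.3% and 44.8% of the 9295 genes were lowest in their group. Of 8 neutrophil markers above the lower quartile, 6 were lowest on control array 2, 5 on Runx1KO array 2 and 6 on fragment array 3, and their summed signal over 12 genes ran from 8240 to 14742 in control, 8395 to 13624 in Runx1KO and 11598 to 14271 in fragment cells. Of 6 mast cell and basophil markers 5, 5 and 3 were lowest there, of which the last is near the share of all genes. Of 15 further monocyte genes 8, 7 and 12 were lowest (53.3%, 46.7% and 80.0%). Markers of dendritic cells and MHC class II went the other way, with 0 of 7 lowest and 4, 6 and 6 highest on these arrays. Of 6 erythroid markers 0, 1 and 1 were lowest there. The 3′/5′ ratio of Gapdh was 1.85, 1.27 and 0.98 on these 3 arrays. The part of any of these in the values of the 9 genes was not tested.

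Among 24 further genes of monocyte and macrophage identity 22 were measured, and in fragment cells 3 rose and 1 fell against control, with a median difference of 0.23. Over all genes 4.28% passed in this comparison. Ccr2, the chemokine receptor that lets monocytes leave the bone marrow, read 9.46, 9.44 and 10.38 in control, 8.75, 8.26 and 9.50 in Runx1KO and 7.0, 7.45 and 6.75 in fragment cells. All fragment arrays lay below all others. Ccr2 fell by 2.69 ± 0.35 against control (adjusted p = 0.00103), a call kept whichever single array was left out (-2.89 to -2.38), and by 1.77 ± 0.35 against Runx1KO (adjusted p = 0.0280), a call lost without Runx1KO array 1 or 3 or any 1 fragment array (single omissions -2.06 to -1.44), with the mean of probe sets and without both arrays of high 3′/5′ ratio.

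Fcgr3, for a low-affinity antibody receptor, read 7.75, 5.53 and 7.71 in control, 9.90, 9.04 and 10.31 in Runx1KO and 9.92, 9.77 and 9.56 in fragment cells. Control arrays were below all others. It rose by 2.75 ± 0.52 in fragment cells (adjusted p = 0.00998), a call kept in each single omission (2.02 to 3.13), and was higher by 2.75 in Runx1KO cells without passing (adjusted p = 0.0527). Ms4a6d (1.12 ± 0.25, adjusted p = 0.0239) and Ms4a6c (1.29 ± 0.33, adjusted p = 0.0484), membrane proteins of the MS4A family, also rose in fragment cells. The call of Ms4a6d was lost without control array 2 or 3 or fragment array 1 or 2 (single omissions 0.95 to 1.28). That of Ms4a6c was lost in all single omissions but that of control array 3 (0.96 to 1.78), and under several other settings.

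In Runx1KO cells 0 of the 22 passed against control, with 4 under an unadjusted p of 0.05, beside 7.22% of all genes. Of the 22 genes 15 had a mean above the lower quartile of all genes (5.38). The F4/80 gene Adgre1, a marker of mature macrophages, averaged 6.24 ± 0.79, 6.92 ± 0.37 and 7.43 ± 0.76 in control, Runx1KO and fragment cells, while the high-affinity antibody receptor gene Fcgr1 was below that quartile in every group (4.66 ± 0.14, 4.82 ± 0.23 and 4.91 ± 0.30). Lyz2, the lysozyme gene of myeloid cells, averaged 10.44 ± 0.24, 10.50 ± 0.20 and 10.55 ± 0.02, with differences from control of 0.06 ± 0.16 and 0.10 ± 0.16. Summed over the 22 genes, normalized linear signal ran from 5030 to 8409 in control, 6610 to 8630 in Runx1KO and 6732 to 8483 in fragment cells, and over the 9 genes from 7065 to 11456, 8631 to 12858 and 8571 to 12098, so that groups overlapped in both sums.

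**Figure D4:**
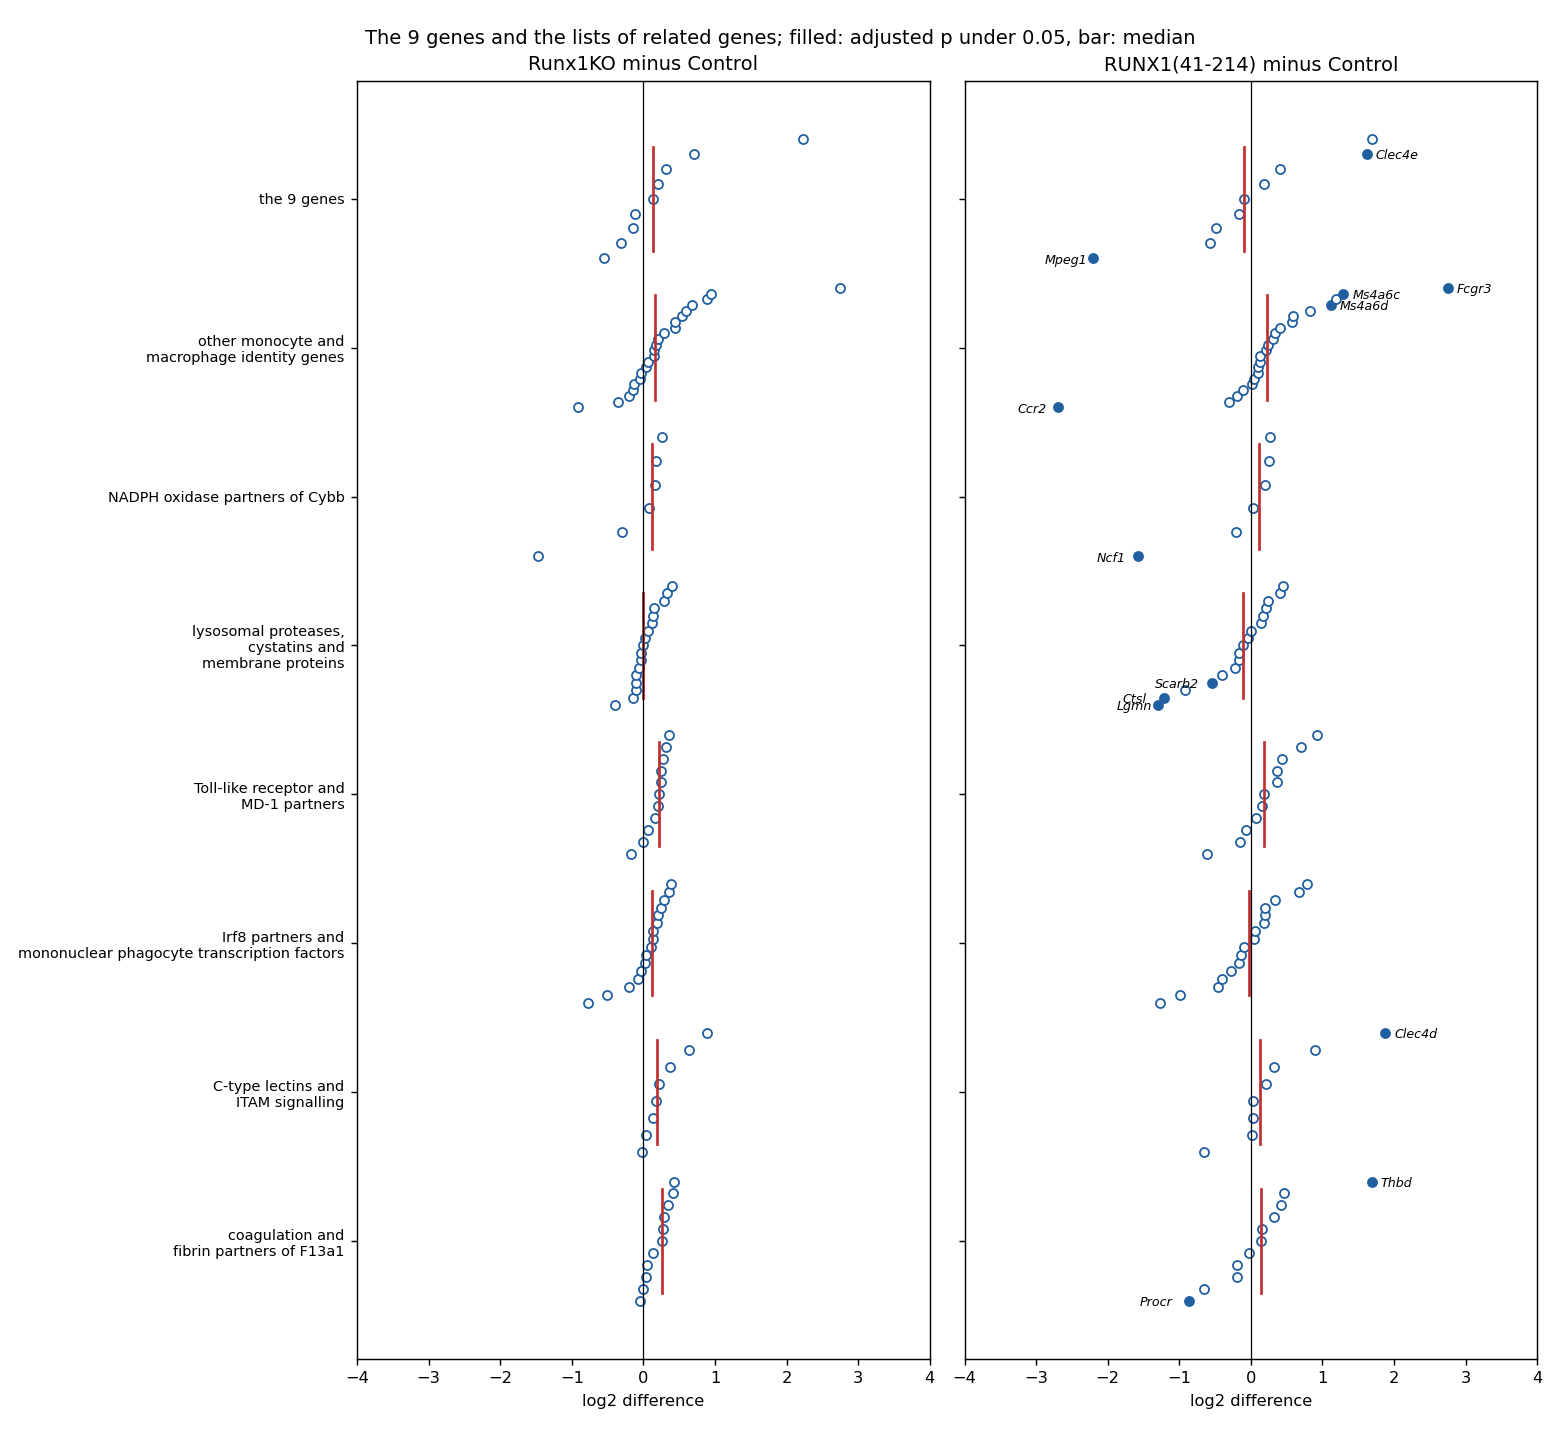
Log2 difference from control of the 9 genes and of 7 lists of related genes, in Runx1KO cells (left) and fragment cells (right); each circle is a gene, filled where the adjusted p was under 0.05, and the bar is the list's median. No circle of the Runx1KO panel is filled, and the fragment panel has filled circles on both sides of 0.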

How the data were processed

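RNA of sorted cells was extracted on microcolumns, amplified with the Affymetrix two-cycle procedure and hybridised to 9 arrays, per the labels' protocols. The values the authors deposited are a linear signal intensity per probe set (0.53 to 20215). How probes were summarised or scaled is not given in the sources used here. Of 22690 probe sets, 64 controls were left out. Intensities were converted to log2(signal + 16), which understates changes of dim genes, and quantile normalized, because array medians spanned 0.211, above the limit of 0.2. Probe sets carried 1 symbol (20380), several (691) or none (1555), and 20351 had a gene identifier in the RefSeq table (GRCm38.p6), which changed 0 symbols. Each gene took its probe set with the highest mean, which gave 12393 genes.

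The 3 group means were estimated in 1 linear model over the 9 arrays (limma 3.58.1 under R 4.3.3; lmFit and eBayes, variance trend on; 6 residual and 5.60 prior degrees of freedom), and two-sided p-values were adjusted by Benjamini-Hochberg over 12393 genes, with a threshold of 0.05. The fit was tested on simulated data with noise drawn independently for each gene and array. That test does not cover spread that genes share on an array. An exact permutation test of 3 against 3 arrays could not go below 0.1 and was not used. The labels call the replicates biological and say no more of their source. The p-values set group differences against the spread between these samples, pooled over the groups and moderated toward a trend over genes. Part of that spread may be technical.

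The 9 genes and the lists were chosen with earlier results of these data known, so no p adjusted over a list is given. The genes named besides the 9 were up to 4 per list past the threshold in a comparison, by lowest p, or otherwise the brightest of the list. For each of the 9 that passed, the 3 genes of most similar profile were named. Csf1r, Spi1, Cd180, Fcer1g, Tyrobp, Cyba, Clec4n, Adgre1, Fcgr1, Lyz2, Itgam, Cd34 and Runx1 were added after their values were seen, as partners, defining markers or the deleted gene. Promoter windows came from RefSeq, in which 9 of 9 genes had one. Alternatives varied the normalization, offset, filter, probe set rule, arrays, weights, variance trend, replicate block and single arrays.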

Additional observations from a re-analysis of the deposited data

How the results depend on the processing

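In Runx1KO cells against control, 0 of the 9 genes passed under each of the 20 alternatives, beside 9 to 63 of all genes. In fragment cells against control the count was 2, ran from 1 to 3 with single arrays left out, and was 4 without both arrays of high 3′/5′ ratio, where Cst3 (0.48) and Irf8 (-0.82) joined Clec4e and Mpeg1. The calls over all genes moved too, from 531 to between 295 and 613 with single arrays left out, and to 763 without both arrays. Between fragment and Runx1KO cells the count of the 9 was 1, ran from 0 to 2 with single arrays left out, was 0 with the mean of probe sets and 2 with array weights, where Mpeg1 joined (-1.58). The calls over all genes there were 168, with 146 under the mean of probe sets and 371 with array weights. The cause of these changes was not tested, beyond the fewer arrays that an omission leaves.

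The differences of the 9 genes that did not pass gave 451 values on the same side of the threshold and with the same sign under the alternatives, 8 that passed and 18 that changed sign. Those with a change of sign among single omissions ranged as follows. In Runx1KO against control, Ctss ran from -0.39 to 0.08, Ly86 from -0.42 to 0.95, Irf8 from -0.13 to 0.49 and Cybb from -0.38 to 0.36. In fragment against control, Ly86 ran from -0.89 to 0.48 and Cybb from -0.35 to 0.39, and between fragment and Runx1KO cells Cybb ran from -0.20 to 0.23. With array weights, Irf8 became 0.00 and Cybb 0.01 in Runx1KO against control, and Cybb -0.12 between fragment and Runx1KO cells. Without both arrays of high ratio the same comparisons gave -0.57 for Ly86, -0.38 for Irf8 and -0.20 for Cybb. Cybb was below the filter on dim genes and has no value there.

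Replicate numbers were shared by the groups. Arrays of 1 number had deviations that correlated from -0.17 to 0.42. Between control and Runx1KO arrays the values were 0.03, 0.41 and 0.42, and every pair at or below 0 included a fragment array. The labels tie no equal numbers together, so the numbers were not taken as a pairing. A pairing of control and Runx1KO arrays alone was not fitted. As a hint from the data, not the design, 6 of 9 arrays correlated best with their own number. With the replicate block 0, 2 and 1 of the 9 genes passed in the 3 comparisons, as without it, and Clec4e and Mpeg1 differed from control by 1.62 and -2.20 in fragment cells. With 3 arrays per group the median standard error was 0.20 (log2), and for F13a1 it was 0.76, so differences of the variable genes were estimated loosely.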
